A study of Mus musculus with 33 samples.

Results

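The Notch pathway was followed through 10 genes in cultured mouse retinal cells: the receptors Notch1, Notch2 and Notch3, the ligands Dll1, Dll4 and Jag1, and the basic helix-loop-helix genes Hes1, Hes5, Hes6 and Hey1. They were taken by symbol from the 47729 genes in the count tables, each symbol matched a single gene, and all 10 passed the filter on low counts that left 18150 genes for testing. The cells were retinal progenitor cells of C57BL/6J mice, taken from retina at embryonic day 14. At day 0 they were untreated, primed towards cones with COCO protein (a secreted antagonist of the TGF-beta, BMP and Wnt families), or primed towards rods with taurine and retinoic acid. Cone induction with COCO and rod induction with taurine and retinoic acid were then sampled at days 5, 12, 21 and 35, which gave 11 groups of 3 RNA sequencing libraries. Untreated cells were sampled at day 0 only. The labels do not describe the culture, the duration of each agent, or whether the 3 libraries of a group came from separate animals or cultures, so p-values measure the spread between these libraries, which may be technical.

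Notch signalling passes between touching cells. A Delta or Jagged ligand on the surface of a cell binds a Notch receptor on its neighbour, proteases then release the inner part of the receptor, and this part joins RBPJ and Mastermind on DNA and switches on target genes. Hes1, Hes5 and Hey1 are such targets and encode repressors of neurogenic genes, whereas Hes6 is known to counter Hes1 and is found in cells that have begun to differentiate. In the developing retina the pathway is known for keeping progenitors from differentiating early, for holding back photoreceptor fate and for its part in the formation of Muller glia.

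Hes5 is the member whose 250 bases upstream of the start held the letters that RBPJ is known to bind, GTGGGAA or, on the other strand, TTCCCAC, and its sequence is printed because the counts of Hes5 ran from 671 to 0 across the libraries. The stretch lies at chr4:154960673-154960922 on the plus strand of mouse build GRCm38.p6 (RefSeq), 5′ to 3′, with the 7 letters of each match in capitals.

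Hes5 upstream: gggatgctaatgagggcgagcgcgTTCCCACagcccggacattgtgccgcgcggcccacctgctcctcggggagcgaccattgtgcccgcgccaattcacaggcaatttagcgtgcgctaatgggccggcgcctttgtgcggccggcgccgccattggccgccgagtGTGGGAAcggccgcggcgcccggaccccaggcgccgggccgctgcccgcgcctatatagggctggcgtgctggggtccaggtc

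The matches begin 226 and 83 bases before the start. Promoters were found in the RefSeq table for 8 of the 10 members, with no entry for Hes1 and Hey1, and none of the other 7 held a match. Of 32851 mouse promoters of the same length 5.42% held at least 1 match and 0.161% held at least 2. A match of letters is a description and was not tested for binding.

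Libraries held 7511837 to 19166442 counts in genes (median 12985662). Levels are given as CPM, a gene's counts scaled to the size of its library, for 1 gene across samples, and as CPM per kb of exon where genes are compared. A count of 0 allows up to 3 counts, which is 0.174 to 0.407 CPM depending on the library and covers counting error only. Lack of overlap between the 3 libraries of each of 2 groups is common. It held for 22.3% (day 12) to 32.8% (day 5) of all tested genes between cone and rod cells of the same day. The second rod library at day 12 stood apart from the other rod libraries of that day in several members. Of 10 retinal progenitor markers (such as Rax and Lhx2) 9 or 10 had counts in every group, and their summed level was 1211 to 1337 CPM in untreated cells, 1328 to 1477 in cone cells and 1345 to 1716 in rod cells at day 35. In rod primed cells it was 1611 to 2011 CPM, with 4 of the 10 higher and 1 lower than in untreated cells (6.71% and 3.56% of all tested genes). Its part in the changes on rod priming was not tested. The sum does not show each gene. From primed cells to day 5, 4 of the 10 fell in each condition and none rose, where 10.2% (cone) and 8.79% (rod) of all tested genes fell. From day 5 to day 12, 4 rose and 3 fell in cone cells (24.6% and 18.6% of all tested genes). In rod cells 2 fell over that step and none rose (5.59% and 12.7% of all tested genes). The summed level of 10 photoreceptor markers was 898 to 1215 CPM in untreated cells, 1437 to 1816 in cone cells and 656 to 1166 in rod cells at day 5, 11.9 to 36.3 in cone cells and 9.38 to 17.1 in rod cells at day 35. Cone and rod name the culture condition here. Opn1sw was at 0 in all cone libraries of day 35, and Nr2e3 and Arr3 were at 0 in all rod libraries of that day.

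The make-up of the pathway differed between the start and the end of culture in both conditions. Per kb of exon, the order in untreated cells was Hes6 (49.9 ± 9.05 CPM per kb, SD, n = 3), Hes5 (34.0 ± 13.2), Notch1 (21.0 ± 3.98), Dll1 (13.2 ± 2.16), Hey1 (6.61 ± 0.942), Notch2 (5.46 ± 0.63), Dll4 (4.48 ± 0.595), Hes1 (4.43 ± 1.04), Jag1 (0.873 ± 0.136) and Notch3 (0.574 ± 0.216). Libraries of Hes6 overlapped with those of Hes5, Hes5 with Notch1, Hey1 with Notch2, Notch2 with Dll4, Dll4 with Hes1, and Jag1 with Notch3. These neighbours did not differ beyond their spread, whereas libraries of Hes1 and Jag1 were apart. At day 35 the leading genes were Notch2 (30.9 ± 0.742 CPM per kb), Hes1 (28.0 ± 4.34), Notch1 (15.1 ± 0.917) and Jag1 (15.0 ± 2.65) in cone cells. The same 4 genes led in rod cells, with Hes1 at 31.6 ± 5.88 CPM per kb, Notch2 at 28.5 ± 4.21, Notch1 at 15.1 ± 3.74 and Jag1 at 8.62 ± 4.57. Notch2 and Hes1 could not be ranked against each other at day 35 in either condition, since their libraries overlapped. The same held for Notch1 and Jag1. In rod cells Jag1 also overlapped the next gene, Hes6 (5.81 ± 1.17 CPM per kb), so its place among the leading genes did not hold beyond the spread. Hes5 was last in all 4 rod groups after day 0 and in cone cells of day 35, and second to last, above Dll4, in cone cells of days 12 and 21. Its last place held beyond the spread only in rod cells of days 21 and 35, and in the other of these groups its libraries overlapped those of Jag1 (rod day 5) or Dll4.

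**Figure D1:**
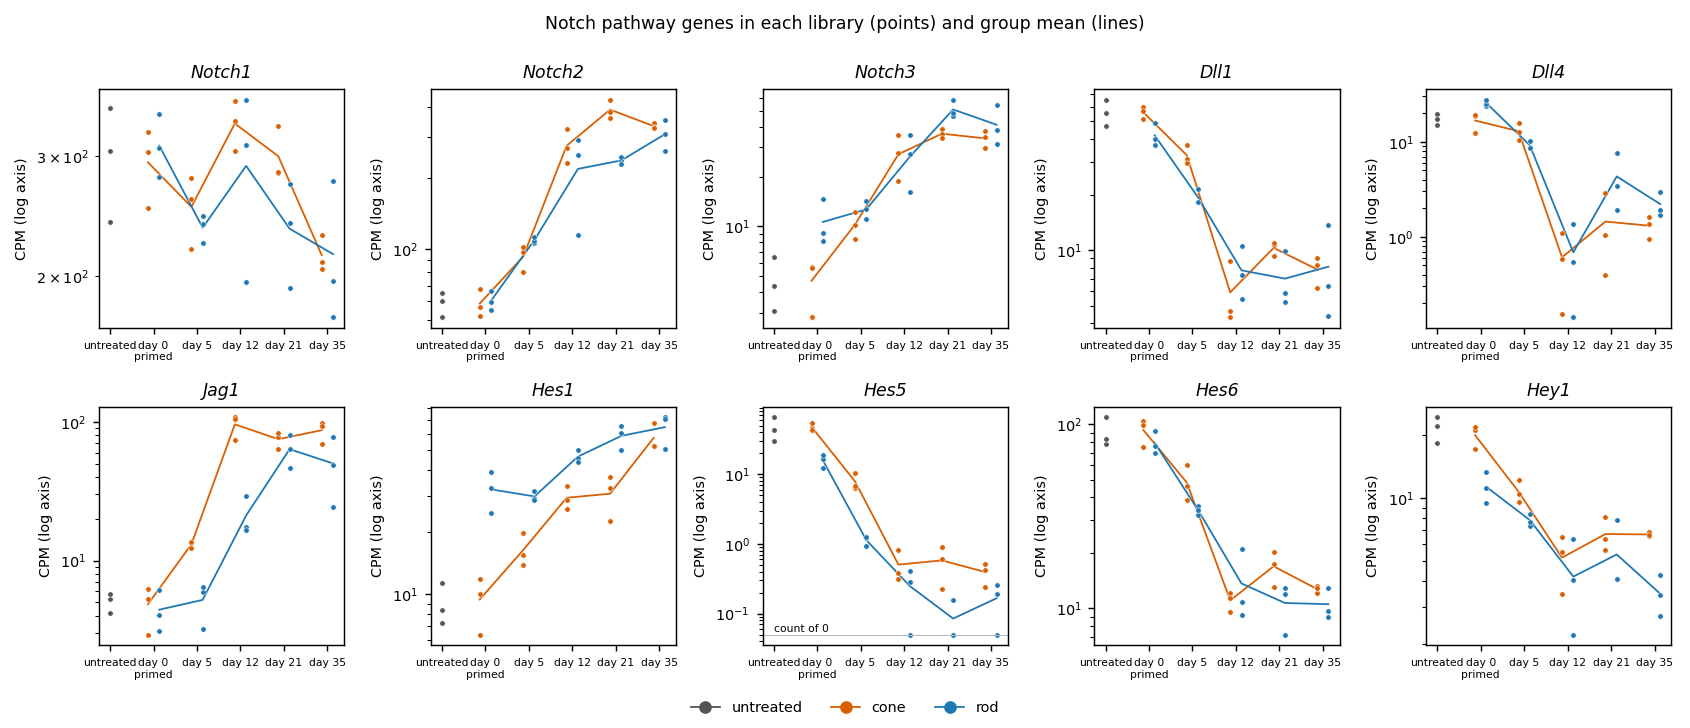
CPM of each Notch pathway gene on a log axis (each panel has its own range) against the day of culture. Points are libraries (grey untreated, orange cone, blue rod) and lines join group means of 3 libraries. Points on the grey line of the Hes5 panel are libraries with a count of 0. Notch2, Notch3, Jag1 and Hes1 are higher at day 35 than in primed cone cells, and Dll1, Dll4, Hes5, Hes6 and Hey1 are lower.

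More members were called between day 5 and day 12 than between primed cells and day 5 or between day 12 and day 35. In cone cells, however, the count was 9 against 8 to day 5, while the share of all tested genes called rose from 22.3% to 43.2%. Of the 9 of 10 members called in cone cells from day 5 to day 12, 4 were higher and 5 lower at day 12. Of all tested genes 24.6% were called higher and 18.6% lower (edgeR quasi-likelihood test, adjusted p under 0.05, here and below). In rod cells 9 members were called over the same interval, again 4 higher and 5 lower, where 18.3% of all genes were called, 12.7% higher and 5.59% lower. Between primed cells and day 5, 8 members were called in cone cells (4 higher and 4 lower, background 22.3%, of which 12.2% higher and 10.2% lower) and 5 in rod cells (1 higher and 4 lower, background 17.5%, of which 8.76% higher and 8.79% lower). Between day 12 and day 35, 2 members were called in cone cells (Hes1 higher and Notch1 lower, background 12.4% higher and 9.39% lower, 21.8% in all) and 2 in rod cells (Jag1 and Dll4, both higher, background 12.6% higher and 13.8% lower, 26.4% in all). The direction was not uniform: the median log2 fold change of the 10 members from day 5 to day 12 was -0.33 in cone cells and -0.30 in rod cells, against 0.03 over all genes in each. On the deposited TPM, on which Notch1, Notch2, Dll1 and Hes1 could be tested, 1 member was called in cone cells between primed and day 5, 1 between day 5 and day 12, and none in any other comparison of the text.

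Among the receptors, Notch2 rose in both conditions and replaced Notch1 as the more abundant receptor mRNA per kb. Untreated libraries held 60.3, 51.4 and 64.8 CPM of Notch2. Cone libraries held 96.9, 79.8 and 102 CPM at day 5, 270, 231 and 322 at day 12, 361, 430 and 382 at day 21, and 342, 329 and 328 at day 35. All 12 of these were above every untreated and primed library. Rod libraries held 107, 109 and 113 CPM at day 5, 252, 115 and 290 at day 12, 239, 245 and 230 at day 21, and 308, 353 and 262 at day 35. Only the second rod library of day 12, at 115 CPM with 1687 counts, remained near the level of day 5. From primed cells to day 5 Notch2 rose in cone cells by a log2 fold change of 0.66 ± 0.20 (SE; adjusted p = 0.018) and in rod cells by 0.86 ± 0.20 (adjusted p = 0.0037). From day 5 to day 12 it rose further, by 1.56 ± 0.20 in cone cells (adjusted p = 6.4e-07) and by 1.00 ± 0.20 in rod cells (adjusted p = 0.00064). Without the third cone primed library the first of these rises was not called (adjusted p = 0.063), and with only the libraries of the 2 rod groups in the model the rod rise to day 12 was not called (adjusted p = 0.11).

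At day 21 Notch2 was higher in cone than in rod cells, at 391 ± 35.3 against 238 ± 7.74 CPM, with no overlap between libraries (log2 fold change 0.72 ± 0.20, adjusted p = 0.020). This call was lost without the second cone library of that day (adjusted p = 0.078) or without the second (0.057) or the third (0.078) rod library. At day 35 Notch2 levels of the 2 conditions overlapped. Whether the difference in Notch2 changed with day did not pass the test (adjusted p = 0.12).

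Notch1, the receptor best known from retinal progenitors, held 353, 240 and 305 CPM in untreated libraries and ranged from 174 to 362 CPM over all 33. It was called in 1 of the 15 comparisons, a fall in cone cells from 335 ± 28.0 CPM at day 12 to 215 ± 13.1 at day 35 (log2 fold change -0.64 ± 0.18, adjusted p = 0.013). Rod libraries at day 35 held 275, 174 and 197 CPM and overlapped those of day 12, at 362, 196 and 312. Cone and rod libraries of Notch1 overlapped at days 0, 5, 12 and 35. They did not overlap at day 21, as for 24.7% of all tested genes. There the cone libraries held 283, 332 and 284 CPM and the rod libraries 273, 192 and 239, and the difference was not called (adjusted p = 0.25).

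Counted per kb of exon, Notch1 made up 77.6 ± 1.66% of the summed Notch1, Notch2 and Notch3 level in untreated cells, and Notch2 20.3 ± 2.11%. By day 35 these shares were 30.0 ± 0.701% and 61.6 ± 0.994% in cone cells, and 31.1 ± 6.70% and 58.5 ± 4.58% in rod cells. The ratio of Notch1 to Notch2 was 3.85 ± 0.51 in untreated cells, 2.06 ± 0.0296 in cone and 1.63 ± 0.0949 in rod cells at day 5, 0.931 ± 0.0765 and 1.07 ± 0.241 at day 12, and 0.488 ± 0.0179 and 0.540 ± 0.154 at day 35. In all 3 untreated libraries Notch1 exceeded Notch2 per kb, and in all 6 libraries of day 35 it was the reverse.

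Notch3, known for its role in the mural cells of blood vessels, had the lowest level of the 3 receptors in every group. Untreated libraries held 6.52, 3.07 and 4.35 CPM, rod primed libraries 9.09, 8.16 and 14.6, and cone primed libraries 5.66, 5.58 and 2.83. Rod primed cells were above both other day 0 groups without overlap, with a log2 fold change over untreated of 1.25 ± 0.32 (adjusted p = 0.012) and of cone over rod primed of -1.19 ± 0.32 (adjusted p = 0.023). The 2 calls share the rod primed libraries, and both were lost without the third of them (adjusted p = 0.13 and 0.20). They were also lost without the second untreated library (0.079) and without the third cone primed library (0.15), respectively. At day 21 cone libraries held 34.0 to 38.8 CPM and rod libraries 46.2 to 58.1. These did not overlap, as for 24.7% of all tested genes at that day, and the difference was not called. At day 35 cone libraries held 37.6, 29.9 and 34.6 CPM and rod libraries 38.1, 53.9 and 31.4, which overlap. Notch3 rose in cone cells from primed to day 5 (log2 fold change 1.12 ± 0.31, adjusted p = 0.011) and from day 5 to day 12 (1.41 ± 0.29, adjusted p = 0.00027), and in rod cells from day 5 to day 12 (1.05 ± 0.29, adjusted p = 0.010). The first of these was lost without the third cone primed library (adjusted p = 0.069), and the last without the second rod library of day 5 (0.059), without the first of day 12 (0.099), or with only the 2 rod groups in the model (0.083).

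The marker list of pericytes and mesenchyme also rose over the culture in both conditions. At day 12, 5 of its 12 genes were higher and 1 lower in cone than in rod cells (5.98% and 4.12% of all tested genes). Notch3 at that day held 18.7 to 35.5 CPM in cone and 16.0 to 35.5 in rod libraries. Its 12 genes, all of them tested, summed to 6.45 to 25.8 CPM in untreated cells, 82.3 to 168 in cone and 24.1 to 48.1 in rod cells at day 5, 1610 to 2367 and 400 to 861 at day 12, and 2338 to 5173 and 1064 to 1946 at day 35. Dcn was at 0 in the cone groups of day 0 and day 5. From day 5 to day 12, 9 of the 12 rose in cone cells and 8 in rod cells. Over that step 5 of 10 Muller glia markers rose and 1 fell in cone cells, and 2 rose in rod cells. Of 8 astrocyte markers 4 rose and 1 fell in cone cells, and 5 rose and 1 fell in rod cells. Of all tested genes 24.6% rose and 18.6% fell over that step in cone cells, and 12.7% and 5.59% in rod cells. The part of any of these cell types in the levels of Notch2, Notch3 and Jag1 was not tested. In bulk RNA a change in the number of cells of a type and a change in RNA per cell cannot be told apart.

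The ligands changed places. Dll1 and Dll4, the Delta ligands that newly committed retinal precursors are known to display, fell in both conditions, and Jag1 rose. Dll1 and Dll4 together held most of the summed ligand level per kb until day 5, and Jag1 from day 12 onward in the mean of every group.

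Jag1 held 4.22, 5.27 and 5.77 CPM in untreated libraries. Cone libraries held 13.5, 12.3 and 13.5 CPM at day 5, 108, 74.6 and 106 at day 12, 78.3, 63.7 and 83.3 at day 21, and 98.1, 69.4 and 93.8 at day 35. Rod libraries held 5.95, 6.51 and 3.19 CPM at day 5, 29.4, 17.4 and 16.7 at day 12, 64.0, 46.9 and 79.9 at day 21, and 24.3, 48.8 and 77.5 at day 35. The 2 conditions did not overlap at days 5 and 12, overlapped at day 21, and overlapped at day 35 through the third rod library. In cone cells Jag1 rose from primed to day 5 (log2 fold change 1.44 ± 0.36, adjusted p = 0.0046) and from day 5 to day 12 (2.87 ± 0.33, adjusted p = 1.3e-07). In rod cells the level at day 5 overlapped that of primed cells (5.22 ± 1.77 against 4.43 ± 1.52 CPM). Rod cells then rose from day 5 to day 12 (2.03 ± 0.35, adjusted p = 0.00014) and from day 12 to day 35 (1.25 ± 0.31, adjusted p = 0.0040), although the first library of day 35 lay below the first of day 12. The last of these was lost without the third rod library of day 35 (log2 fold change 0.78, adjusted p = 0.081), or with only the 2 rod groups in the model (adjusted p = 0.12).

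Cone cells held more Jag1 than rod cells at day 5 (log2 fold change 1.34 ± 0.35, adjusted p = 0.013) and day 12 (2.18 ± 0.32, adjusted p = 3.8e-05). At day 21 the difference was 0.24 ± 0.30 (adjusted p = 0.70) and at day 35 it was 0.79 ± 0.30 (adjusted p = 0.092). This difference was not the same on all days (F test over the 5 days, adjusted p = 0.016). The day 5 call was lost without the third rod library of that day (adjusted p = 0.091), and without the third rod library of day 35 the difference at that day was called (log2 fold change 1.24, adjusted p = 0.014). At day 12, the day of the largest Jag1 difference, 5 of the 12 pericyte and mesenchyme markers were higher and 1 lower in cone cells (5.98% and 4.12% of all tested genes). At day 21, 2 were higher and none lower (5.86% and 3.14% of all tested genes), with sums of 1562 to 2245 CPM in cone and 1092 to 1161 in rod cells. Their part in the Jag1 difference was not tested.

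Dll1 held 65.1, 46.9 and 55.0 CPM in untreated libraries, 59.9, 56.5 and 51.0 in cone primed and 48.6, 39.9 and 37.3 in rod primed libraries. It stood at 31.3, 29.7 and 37.0 CPM in cone and 18.3, 18.2 and 21.4 in rod cells at day 5. These did not overlap, as for 32.8% of all tested genes at that day, and the difference did not pass the test (log2 fold change 0.76 ± 0.28, adjusted p = 0.098). From day 12 to day 35 Dll1 ranged from 4.33 to 11.0 CPM in cone libraries and from 4.39 to 13.6 in rod libraries. The log2 fold change from day 5 to day 12 was -2.46 ± 0.31 in cone cells (adjusted p = 5.3e-07) and -1.31 ± 0.30 in rod cells (adjusted p = 0.0025), where the libraries of day 12 held 76, 154 and 102 counts and the second was also the highest in CPM. The fall from primed to day 5 was -1.11 ± 0.29 in rod cells (adjusted p = 0.0080). In cone cells that step was -0.77 ± 0.28 (adjusted p = 0.047), a call that was lost when any 1 of the 6 libraries was left out (adjusted p from 0.083 to 0.17), with DESeq2's size factors (0.057), with a filter at a mean of 1 CPM (0.062) and with the replicate block (0.050). On the deposited TPM its direction turned (0.65).

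Dll4 held 19.4, 14.9 and 17.5 CPM in untreated libraries and 24.0, 25.1 and 27.6 in rod primed libraries. These did not overlap, as for 33.6% of all tested genes, and the test of that pair did not pass (adjusted p = 0.43). At day 5 Dll4 stood at 12.8, 10.3 and 15.7 CPM in cone and 8.87, 8.51 and 10.1 in rod cells. At day 12 it was down to 5, 14 and 2 counts in the cone libraries (0.155 to 1.09 CPM) and 2, 8 and 19 counts in the rod libraries (0.143 to 1.37 CPM). The log2 fold change from day 5 was -4.38 ± 0.56 in cone cells (adjusted p = 6.9e-07) and -3.73 ± 0.54 in rod cells (adjusted p = 2.2e-05). Rod cells had already fallen from primed to day 5 (-1.48 ± 0.43, adjusted p = 0.017), a call lost without the third rod primed library (adjusted p = 0.053) or without the first (0.052) or second (0.070) rod library of day 5. Rod libraries then held 25, 98 and 53 counts at day 21 and 20, 37 and 30 at day 35, and the rise from day 12 to day 35 was called (1.68 ± 0.58, adjusted p = 0.033). That rise was lost without the first (adjusted p = 0.14) or second (0.12) rod library of day 12 or the second (0.12) or the third (0.054) of day 35. It was also lost with only the 2 rod groups in the model (0.17) and in voom with quality weights (0.20). At day 21 cone libraries held 3, 34 and 14 counts, and the difference from rod libraries was not called (-1.50 ± 0.51, adjusted p = 0.065), but it was called in DESeq2 (0.022), in voom (0.048), with no filter (0.047) and without the second cone (0.012) or first rod library (0.023).

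Counted per kb, Dll1 made up 71.0 ± 1.54% of the summed Dll1, Dll4 and Jag1 level in untreated cells, Dll4 24.2 ± 0.327% and Jag1 4.82 ± 1.23%. At day 12 Jag1 made up 90.9 ± 5.51% in cone cells and 63.3 ± 13.9% in rod cells, and the ranges of 84.5% to 94.5% and 53.1% to 79.2% did not overlap. At day 35 its share was 86.8 ± 4.02% in cone and 73.8 ± 18.6% in rod cells, where the first rod library, at 53.2%, lay below the other two. In rod primed cells Dll1 made up 57.2 ± 5.29% and Dll4 38.4 ± 4.20%. The shares were not tested, and neither Delta ligand was called between rod primed and untreated cells.

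**Figure D2:**
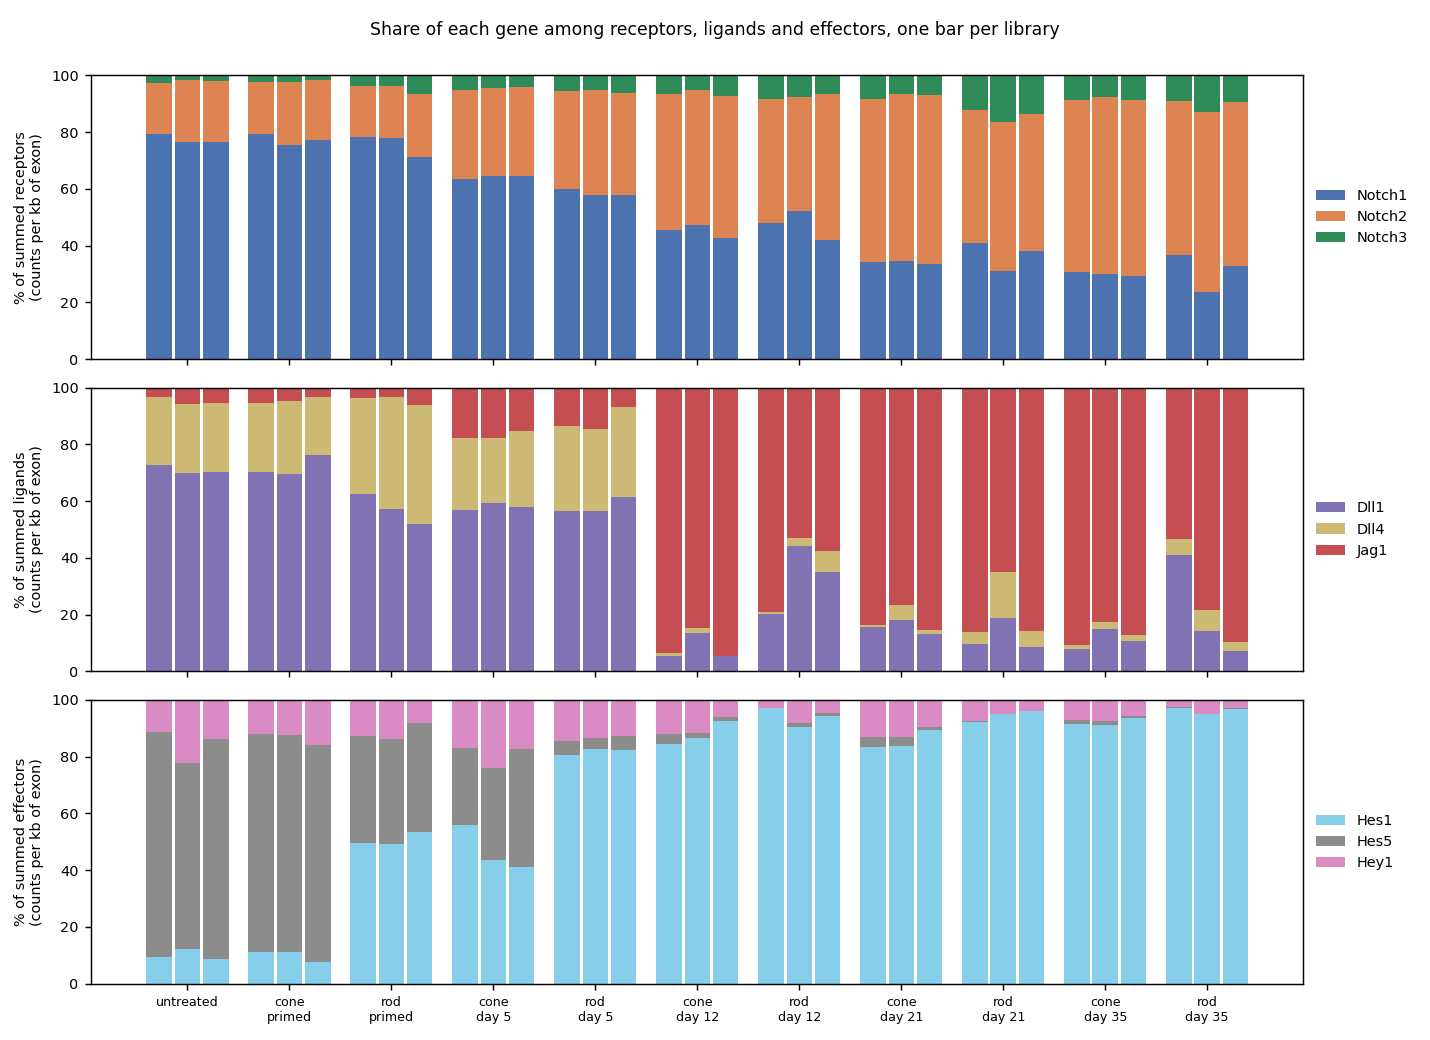
Share in percent of each gene in the summed level per kb of exon of the 3 receptors (top), the 3 ligands (middle) and the target genes Hes1, Hes5 and Hey1 (bottom), with 1 stacked bar for each library in 11 groups. Notch1 gives way to Notch2 (77.6% against 20.3% in untreated cells, 30.0% against 61.6% in cone cells of day 35), the Delta ligands to Jag1 (4.82% in untreated cells, 90.9% in cone cells of day 12) and Hes5 to Hes1.

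The neurogenic precursor list (10 genes such as Neurog2 and Atoh7) fell from day 5 to day 12, a step at which both Delta ligands fell. Its summed level was 1489 to 1609 CPM in untreated cells, 1582 to 1698 in cone and 1153 to 1528 in rod cells at day 5, 355 to 489 and 351 to 749 at day 12, and 236 to 313 and 221 to 282 at day 35. From day 5 to day 12, 8 of its 10 genes fell and 1 rose in cone cells, and 6 fell and 1 rose in rod cells. Of all tested genes 18.6% fell and 24.6% rose over that step in cone cells, and 5.59% and 12.7% in rod cells. From primed cells to day 5, 4 fell in cone and 3 in rod cells, and none rose, where 10.2% and 8.79% of all tested genes fell. The cone sum of day 5 overlapped that of untreated cells, whereas Dll1 was lower. From day 12 to day 35, 5 fell and 2 rose in cone cells (9.39% and 12.4% of all tested genes) and 6 fell in rod cells (13.8%). Neither Delta ligand was called lower over that step. Dll4, however, held only 2 to 14 counts in the cone and 2 to 19 in the rod libraries of day 12. With so little room for a fall, this step cannot compare Dll4 with the list. Atoh7 was at 0 in the cone groups of days 12 and 35 and in the rod groups of days 12, 21 and 35. The part of these cells in the levels of Dll1, Dll4, Hes5 and Hes6 was not tested.

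Hes1 and Hes5, both targets of Notch in the retina, went opposite ways. Hes5 fell from the highest level per kb among Hes1, Hes5 and Hey1 to a few counts, and was lower in rod than in cone cells at days 0, 5 and 21. Hes1 rose, and was higher in rod than in cone cells at days 0, 5, 12 and 21. Rod primed cells differed from untreated cells in both genes.

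Hes5 was counted 512, 448 and 640 times in the untreated libraries (65.5, 29.9 and 43.5 CPM) and 366, 671 and 418 times in the cone primed libraries (46.1, 54.2 and 43.8 CPM). The rod primed libraries held 122, 123 and 210 counts (16.5, 12.4 and 18.9 CPM), below every other day 0 library. At day 5 the cone libraries held 96, 112 and 181 counts and the rod libraries 11, 13 and 18, again without overlap. Cone libraries held 7, 5 and 4 counts at day 12, 7, 7 and 3 at day 21 and 5, 6 and 3 at day 35, whereas rod libraries held 0, 6 and 4, then 2, 0 and 0, then 3, 0 and 3. Of the 9 rod libraries from day 12 on, 4 had a count of 0.

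Rod primed cells had less Hes5 than untreated cells (log2 fold change -1.53 ± 0.33, adjusted p = 0.0031), and cone primed cells had more than rod primed cells (1.59 ± 0.33, adjusted p = 0.0029). At day 5 Hes5 was higher in cone than in rod cells by 2.80 ± 0.41 (adjusted p = 4.8e-05), at 7.91 ± 2.26 against 1.14 ± 0.181 CPM. The falls from primed cells to day 5 were -2.60 ± 0.34 in cone (adjusted p = 5.7e-06) and -3.81 ± 0.41 in rod cells (adjusted p = 6.9e-07). The falls from day 5 to day 12 were -4.04 ± 0.47 in cone (adjusted p = 1.8e-07) and -2.22 ± 0.61 in rod cells (adjusted p = 0.012). The rod step to day 12 rests on 42 counts against 10, and was lost without the first rod library of day 12 (adjusted p = 0.073) or with only the 2 rod groups in the model (0.12).

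Later differences in Hes5 rest on few counts. At day 12 the ratio of cone to rod was 1.98 (16 against 10 counts; 95% counting interval 0.844 to 4.88), and the test did not pass (adjusted p = 0.47). At day 21 it was 10.7 (17 against 2 counts; interval 2.54 to 95.3), which was called (adjusted p = 0.036), and at day 35 it was 2.59 (14 against 6 counts; interval 0.933 to 8.21), which was not (adjusted p = 0.35). The day 21 call was lost without the first (adjusted p = 0.13) or second (0.099) cone library, without the second (0.13) or the third (0.15) rod library, and in voom with quality weights (0.064). Over the mean of days 5 to 35 Hes5 was higher in cone cells (log2 fold change 2.07 ± 0.38, adjusted p = 0.00016), a mean that includes the fitted folds of the days with few counts.

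Hes1 held 11.4, 8.40 and 7.27 CPM in untreated and 10.1, 11.9 and 6.39 in cone primed libraries, against 32.7, 24.9 and 39.1 in rod primed libraries. Cone libraries then held 19.8, 13.8 and 15.6 CPM at day 5, 28.6, 25.9 and 33.5 at day 12, 32.5, 22.7 and 36.9 at day 21, and 52.1, 51.9 and 67.3 at day 35. Rod libraries held 29.2, 28.6 and 31.5 CPM at day 5, 45.5, 43.6 and 50.1 at day 12, 60.5, 49.8 and 65.0 at day 21, and 71.8, 50.6 and 70.9 at day 35. At days 0, 5, 12 and 21 every rod library was above every cone library, and at day 35 they overlapped.

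Rod primed cells had more Hes1 than untreated cells, by a log2 fold change of 1.86 ± 0.22 (adjusted p = 2.0e-06). The cone over rod difference was -1.76 ± 0.22 at day 0 (adjusted p = 5.8e-06), -0.86 ± 0.21 at day 5 (adjusted p = 0.0079), -0.66 ± 0.21 at day 12 (adjusted p = 0.038), -0.93 ± 0.21 at day 21 (adjusted p = 0.0040) and -0.17 ± 0.20 at day 35 (adjusted p = 0.65). It changed with day (F test, adjusted p = 0.011). The day 5 call was lost without the second cone library (adjusted p = 0.077). The day 12 call was lost when any 1 of the 6 libraries was left out (adjusted p from 0.052 to 0.13) and with only these 2 groups in the model (0.051). On the deposited TPM, where Hes1 is listed at 0 in 11 of the 33 libraries with up to 605 counts behind such a 0, no Hes1 difference was called. There the sign turned for rod priming (-0.093), for the mean over days (0.063) and for cone over rod at days 12, 21 and 35.

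Within cone cells Hes1 rose from primed to day 5 (log2 fold change 0.79 ± 0.22, adjusted p = 0.011), from day 5 to day 12 (0.84 ± 0.21, adjusted p = 0.0019) and from day 12 to day 35 (0.96 ± 0.21, adjusted p = 0.0016). Rod cells held 32.2 ± 7.10 CPM when primed and 29.8 ± 1.54 at day 5, which overlap. Their rise from day 5 to day 12 was 0.64 ± 0.20 (adjusted p = 0.029). Leaving out the third cone primed library (adjusted p = 0.077) or the first cone library of day 5 (0.055) ended the first of these calls. The rod rise was lost when any 1 of 5 of the 6 libraries was left out (adjusted p from 0.056 to 0.10), the second of day 12 being the exception. On the deposited TPM the cone step from day 12 to day 35 turned its direction (-0.54).

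Muller glia markers moved with Hes1 at day 0. The 10 genes of that list, which include Rlbp1, Glul and Slc1a3, summed to 860 to 1032 CPM in untreated, 952 to 1221 in cone primed and 2030 to 2450 in rod primed cells, all with counts in each group. In rod primed over untreated cells 7 of them were higher and 1 lower, and in cone over rod cells of day 0, 1 was higher and 6 lower. Of all tested genes 6.71% were higher and 3.56% lower in the first comparison, and 2.5% and 4.77% in the second. At day 21, where Hes1 was lower in cone cells, 3 of the 10 were higher in cone cells and none lower (5.86% and 3.14% of all tested genes), with sums of 5203 to 6803 CPM in cone and 4290 to 5549 in rod cells. Cell cycle genes were also higher in rod primed than in untreated cells, 6 of 10 by the test (6.71% of all tested genes), with sums of 1679 to 2129 against 751 to 1189 CPM. In cone over rod cells 3 of the 10 were lower at day 0 and 9 at day 5 (4.77% and 5.8% of all tested genes), where their sums were 544 to 741 CPM in cone and 1357 to 1532 in rod cells, and none was higher at either day. The part of either in the Hes1, Hes5 and Jag1 differences was not tested.

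**Figure D3:**
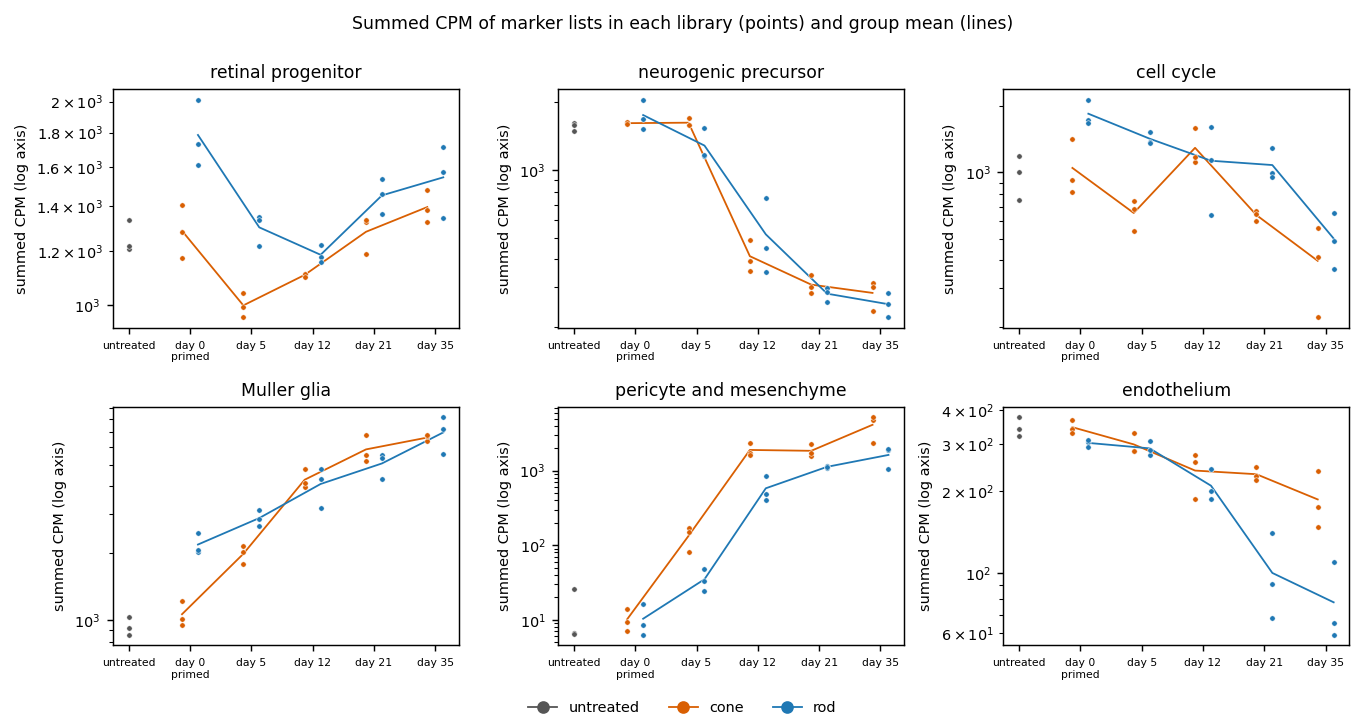
Summed CPM of 6 marker lists on a log axis in each library (points) against the day of culture, with lines joining group means of 3 libraries (grey untreated, orange cone, blue rod). Muller glia markers go from 860 to 1032 CPM in untreated cells to 5552 to 8152 in rod cells of day 35, pericyte and mesenchyme markers from 6.45 to 25.8 CPM in untreated cells to 2338 to 5173 in cone cells of day 35, and neurogenic precursor markers from 1489 to 1609 CPM to 221 to 282 in rod cells of day 35.

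Per kb of exon, Hes5 made up 74.2 ± 7.66% of the summed Hes1, Hes5 and Hey1 level in untreated cells and 76.6 ± 0.223% in cone primed cells, but 37.6 ± 0.890% in rod primed cells, where Hes1 made up 50.9 ± 2.23%. At day 5 Hes5 still made up 33.6 ± 7.32% in cone cells and 4.66 ± 0.569% in rod cells. The range of 27.1% to 41.6% in cone cells at day 5 took in that of rod primed cells, 36.8% to 38.5%. At day 35 Hes1 made up 92.2 ± 1.38% in cone and 96.3 ± 1.16% in rod cells.

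Hes6 held 109, 78.4 and 83.3 CPM in untreated libraries and was the highest member per kb in all 3 day 0 groups and both day 5 groups. Cone libraries held 46.3, 38.7 and 59.6 CPM and rod libraries 35.9, 32.2 and 34.2 at day 5. At day 12 the values were 9.56, 12.1 and 11.4 in cone and 9.14, 20.9 and 10.8 in rod cells, the second rod library being the high value with 306 counts. The fall from primed to day 5 was -0.95 ± 0.23 in cone (adjusted p = 0.0041) and -1.21 ± 0.23 in rod cells (adjusted p = 0.00067), and from day 5 to day 12 it was -2.12 ± 0.25 (adjusted p = 1.8e-07) and -1.32 ± 0.24 (adjusted p = 0.00029). Cone over rod was not called for Hes6 at any day, with log2 fold changes from -0.30 ± 0.25 at day 12 to 0.65 ± 0.25 at day 21 (adjusted p = 0.10).

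Hey1, a target gene related to Hes1, held 22.1, 24.3 and 18.3 CPM in untreated, 17.1, 21.1 and 21.8 in cone primed and 13.3, 11.2 and 9.43 in rod primed libraries. Rod primed cells were lower than untreated cells without overlap (log2 fold change -0.94 ± 0.27, adjusted p = 0.024). This call was lost without the first (adjusted p = 0.066) or second (0.12) untreated library or the second (0.071) or the third (0.14) rod primed library. Cone over rod primed cells was 0.83 ± 0.27 (adjusted p = 0.059), and it was called in voom with quality weights (0.00034), in DESeq2 (0.024) and with only these 2 groups in the model (0.012). Hey1 fell in cone cells from primed to day 5 (-0.90 ± 0.26, adjusted p = 0.015) and from day 5 to day 12 (-1.06 ± 0.28, adjusted p = 0.0030), and in rod cells from day 5 to day 12 (-0.89 ± 0.28, adjusted p = 0.027), where the libraries of day 12 held 2.21, 6.34 and 4.04 CPM and the second was the highest. Leaving out 1 library ended the first of these calls for 4 of 6 libraries (adjusted p from 0.057 to 0.082) and the rod call for 5 of 6 (from 0.055 to 0.18), and no single library ended the cone call to day 12. At day 35 cone libraries held 6.57, 6.87 and 6.62 CPM and rod libraries 2.72, 4.29 and 3.42, and Hey1 was called higher in cone cells (0.94 ± 0.29, adjusted p = 0.031). The day 35 call was lost without any 1 of 5 of the 6 libraries (adjusted p from 0.064 to 0.15), the second rod library being the exception, and with only these 2 groups in the model (0.050).

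Read by day, cone and rod cells differed in 3 of the 10 members at day 0 (Notch3, Hes1 and Hes5), where 7.27% of all tested genes were called, 2.5% higher and 4.77% lower in cone cells. They differed in 3 at day 5 (Jag1, Hes1 and Hes5; background 9.28%, with 3.48% higher and 5.8% lower) and in 2 at day 12 (Jag1 and Hes1; 10.1%, with 5.98% higher and 4.12% lower). At day 21 there were 3 (Notch2, Hes1 and Hes5; 9%, with 5.86% higher and 3.14% lower), and at day 35 there was 1 (Hey1; 12.3%, with 7.77% higher and 4.51% lower). Over the mean of days 5 to 35 there were 4 (background 27.8%, with 15.6% higher and 12.2% lower): Jag1 (log2 fold change 1.14 ± 0.16, adjusted p = 3.6e-06), Hes5 and Hey1 (0.50 ± 0.14, adjusted p = 0.0086) were higher in cone cells, and Hes1 was lower (-0.66 ± 0.10, adjusted p = 1.8e-05). The difference changed with day for Jag1 and Hes1, 2 of 10, where 9.22% of all genes were called. The median log2 fold change of the members ran from 0.04 at day 0 through 0.48 (day 5), 0.13 (day 12) and 0.34 (day 21) to 0.06 by day 35, against -0.01 to 0.03 over all genes. Notch1, Dll1, Dll4 and Hes6 were not called between cone and rod at any day.

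**Figure D4:**
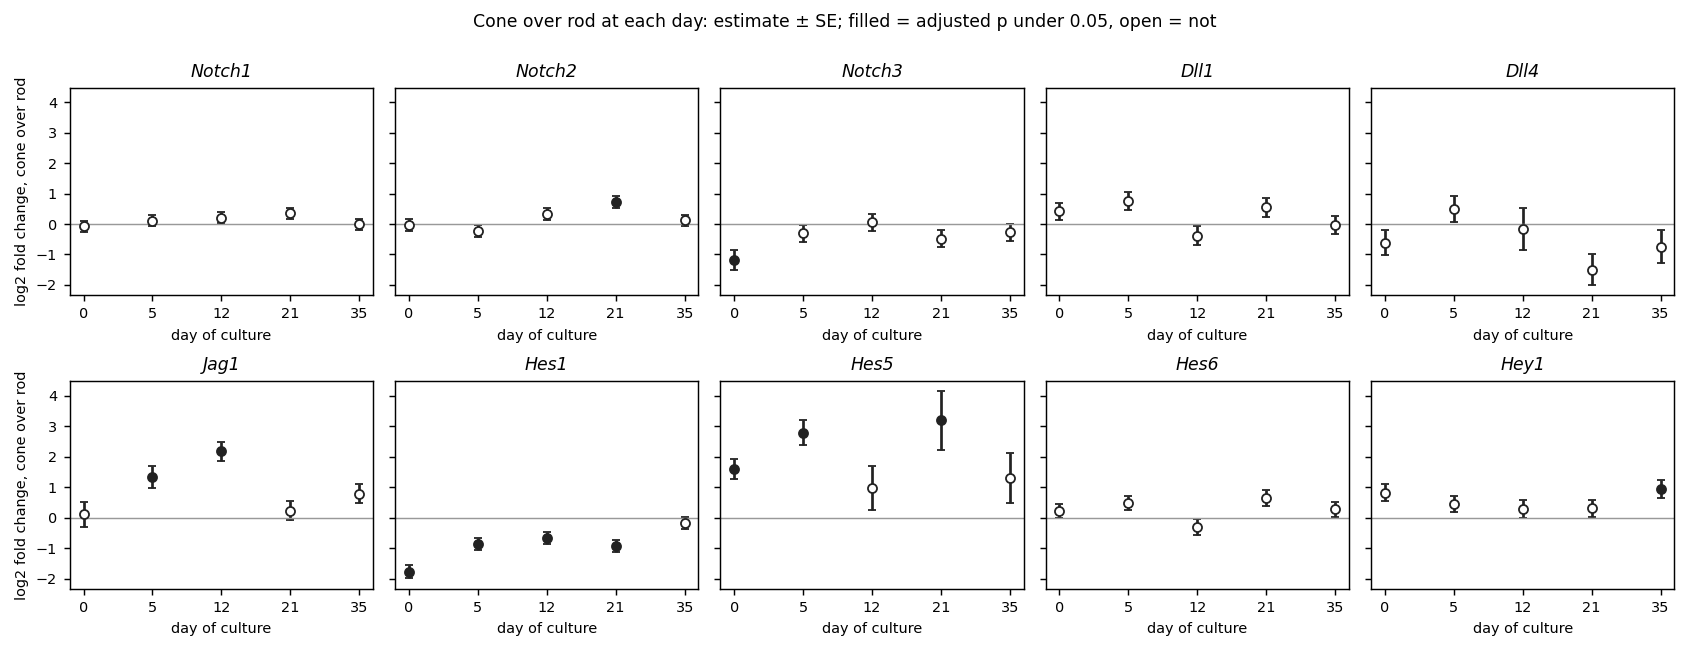
Log2 fold change of cone over rod cells at days 0, 5, 12, 21 and 35 for each Notch pathway gene, with bars of 1 SE from the model of 33 libraries. Filled points passed the test and open points did not. Jag1 passed the test above 0 at days 5 and 12, Hes1 below 0 from day 0 to day 21, and Hes5 above 0 at days 0, 5 and 21. On their other days these genes did not pass, whichever side of 0 they lie on. The bars of Hes5 are wide after day 5.

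Priming with COCO and priming with taurine and retinoic acid gave different pictures against untreated cells, which both comparisons share. In rod primed cells 4 of the 10 members were called (Notch3 and Hes1 higher, Hes5 and Hey1 lower; background 10.3%, with 6.71% higher and 3.56% lower). In cone primed cells no member and no gene of the 18150 was called (background 0%), with 0 members and 200 genes at an unadjusted p under 0.05, and DESeq2, voom with quality weights and limma on the deposited TPM also called no gene. The largest member difference in cone primed cells was a log2 fold change of -0.11 ± 0.26 for Hey1.

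Other genes of the pathway were taken from lists of 58, of which 54 could be tested. Mfap5, Hes3 and Hes7 had too few counts, and Tle5 was not matched by symbol. Cone and rod cells differed in 8 of the 54 at day 0 (4 higher and 4 lower in cone), 11 at day 5 (5 and 6), 13 at day 12 (6 and 7), 8 at day 21 (3 and 5) and 8 at day 35 (1 and 7). Against the backgrounds given above these shares were 14.8%, 20.4%, 24.1%, 14.8% and 14.8% of the list. Rod primed over untreated cells differed in 9 (4 higher and 5 lower), 16.7% of the list against 10.3% of all genes, and cone primed cells in none. From day 5 to day 12, 26 of the 54 were called in cone cells (10 higher and 16 lower). In rod cells 15 were called over that step (9 and 6). These were 48.1% and 27.8% of the list, against 43.2% and 18.3% of all genes. The median log2 fold change over the 54 stayed within -0.06 to 0.12 in all 14 comparisons with a direction.

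Among the corepressors of the Groucho family that Hes proteins recruit, Tle4 and Tle1 differed in opposite directions. Tle4 held 125 ± 12.3 CPM in untreated and 120 ± 11.6 in cone primed cells against 57.3 ± 4.27 in rod primed ones, and fell on rod priming (log2 fold change -1.12 ± 0.13, adjusted p = 1.5e-06). It was higher in cone than in rod cells at 4 of the 5 days, by a log2 fold change of 1.07 ± 0.13 when primed, 0.75 ± 0.13 and 0.76 ± 0.13 on days 5 and 12, and 0.44 ± 0.13 on day 21 (adjusted p from 3.7e-06 to 0.038). Tle1 was lower in cone cells at 3 days, at 55.4 ± 13.1 against 133 ± 22.0 CPM at day 5 (-1.26 ± 0.20, adjusted p = 0.00012). Tle2 rose in cone cells from 11.9 ± 6.10 CPM when primed to 41.4 ± 2.12 at day 5 (1.82 ± 0.43, adjusted p = 0.0030) and fell to 8.78 ± 4.52 at day 12. Maml2, a Mastermind coactivator, rose from day 5 to day 12 in cone (1.34 ± 0.13, adjusted p = 1.3e-08) and rod cells (0.63 ± 0.13, adjusted p = 0.00081). Of this list, 3 of 14 genes were called between cone and rod cells at day 0, 4 at day 5, 6 at day 12, and 2 on each of days 21 and 35, which is 21.4%, 28.6%, 42.9%, 14.3% and 14.3% of the list against 7.27%, 9.28%, 10.1%, 9% and 12.3% of all genes.

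Of the 12 genes of ligand endocytosis and receptor trafficking, 2 were called at day 0, 4 at day 5 and 2 at each later day. These were 16.7% of the list, 33.3% at day 5, against the 7.27% to 12.3% of all genes, the highest of which is that of day 35. Dtx4, of the Deltex family of ubiquitin ligases, was lower in cone cells at all 5 days. It held 217 ± 7.34 CPM in untreated and 229 ± 56.0 in cone primed cells against 446 ± 52.1 in rod primed ones, and 135 ± 6.00 in cone against 288 ± 20.1 in rod cells at day 5 (log2 fold change -1.09 ± 0.18, adjusted p = 0.00018). Neurl1b, of the Neuralized ubiquitin ligases that act on Delta ligands, was lower in cone cells at 4 days, at 4.66 ± 0.497 against 12.7 ± 0.657 CPM at day 21 (-1.45 ± 0.22, adjusted p = 7.7e-05). Neurl1a fell in rod cells from 9.35 ± 5.59 CPM at day 12 to 1.02 ± 0.459 at day 35 (-3.15 ± 0.55, adjusted p = 0.00017).

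Of the 10 proteases that cut Notch, 0 to 3 were called between cone and rod cells at the 5 days, the 3 at day 21. This was 0% to 30% of the list against 7.27% to 12.3% of all genes, and 30% against 9% at day 21. Aph1b, a subunit of gamma-secretase, was lower in cone cells at days 12, 21 and 35, at 15.5 ± 2.11 against 27.2 ± 0.520 CPM at day 35 (log2 fold change -0.81 ± 0.16, adjusted p = 0.00082). Ncstn, the nicastrin subunit, was higher in cone cells at day 21 (0.44 ± 0.11, adjusted p = 0.012), and Psen2, a catalytic subunit, rose in cone cells from day 12 to day 35 (0.83 ± 0.21, adjusted p = 0.0058). From day 12 to day 35, 4 of the 10 genes of this list rose in cone cells and 5 in rod cells, and none fell, where 12.4% and 12.6% of all genes rose and 9.39% and 13.8% fell. None of the 5 glycosyltransferase genes was called between cone and rod cells at any day. Lfng, which modifies the Notch extracellular domain, fell in cone cells from 31.7 ± 1.72 CPM at day 12 to 13.6 ± 2.55 at day 35 (-1.22 ± 0.25, adjusted p = 0.00098).

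Among receptors and ligands outside the 10, Notch4, a receptor known mainly from endothelium, held 1.42 ± 0.229 CPM in untreated cells and 2.46 ± 1.40 in rod cells at day 12. It then stood at 23.1 ± 13.9 CPM in rod and 4.59 ± 1.65 in cone cells at day 21, and at 33.5 ± 17.4 and 9.94 ± 4.90 at day 35. The rise in rod cells from day 12 to day 35 was 3.76 ± 0.51 (adjusted p = 8.9e-06), and cone was below rod by -2.33 ± 0.48 at day 21 (adjusted p = 0.0021) and -1.75 ± 0.45 at day 35 (adjusted p = 0.011). The 10 endothelium markers, 4 of which could be tested, were higher or not called in cone cells, 1 higher at day 21 and 2 at day 35 (5.86% and 7.77% of all tested genes), with sums of 68.3 to 140 CPM in rod and 221 to 247 in cone cells at day 21, and of 59.1 to 109 and 148 to 237 at day 35. At day 35 Tie1 and Cldn5 were at 0 in both conditions, and Erg in cone cells. In untreated cells 5 of the 10 markers were at or under 3 counts in a list that summed to 320 to 376 CPM. Their part in the Notch4 difference was not tested.

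Jag2 was at 2.79 ± 0.879 CPM in cone and 1.20 ± 0.391 in rod cells at day 35 (log2 fold change 1.23 ± 0.35, adjusted p = 0.020), both below the 17.0 ± 3.26 of untreated cells. Cntn1, an adhesion protein described as a Notch ligand, was lower in cone cells at 3 days, at 166 ± 21.6 against 510 ± 21.4 CPM at day 5 (-1.62 ± 0.20, adjusted p = 4.4e-06). Dner fell from day 5 to day 12 in rod cells (-1.27 ± 0.44, adjusted p = 0.043), from 25.9 ± 2.78 to 10.7 ± 11.1 CPM, where the libraries of day 12 ran from 2.78 to 23.4 CPM and the lowest of day 5 held 24.3. Of the other effectors and feedback targets, 5 of 7 could be tested, and 2 were higher in cone cells at day 0, 1 at day 5 and 1 at day 12. These were 40%, 20% and 20% of the 5, where 2.5%, 3.48% and 5.98% of all genes were called higher. None was called at days 21 and 35.

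**Figure D5:**
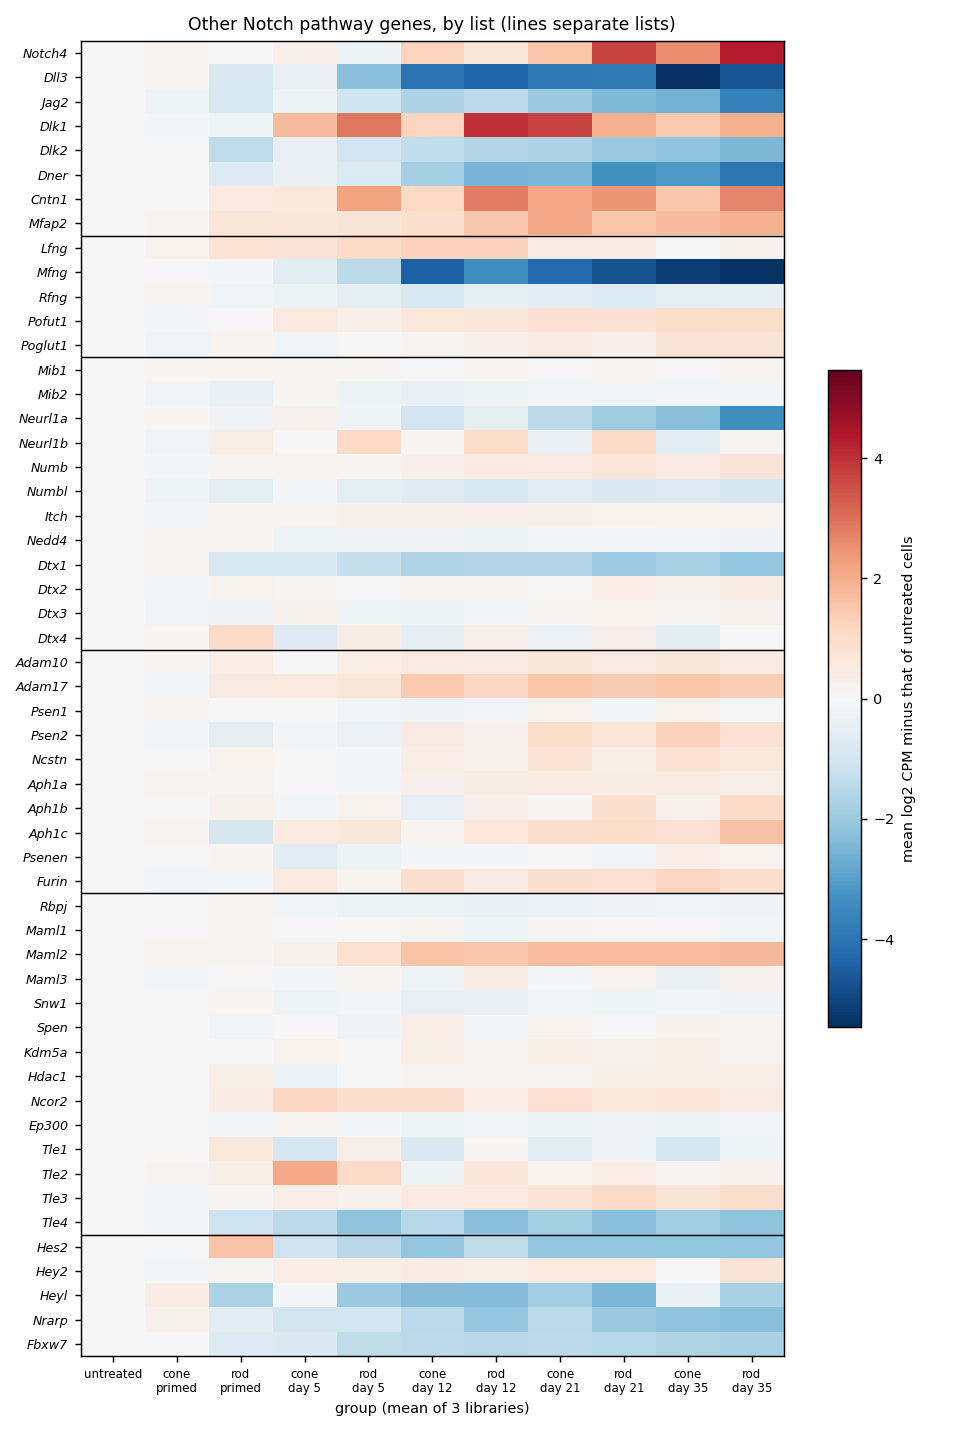
Mean log2 CPM of 54 other Notch pathway genes in each of 11 groups of 3 libraries, minus the mean of untreated cells (red higher, blue lower, colour scale in log2 units). Black lines separate 6 lists. Notch4 is highest in rod cells of day 35 (33.5 CPM), and Tle4 is lower in rod primed than in cone primed cells (57.3 against 120 CPM).

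The genes whose group means most resembled each member's over the 11 groups were found among 9329 genes, as a description over means that share libraries and the course of culture. Notch2 was closest to Plce1, Sparc and Ntrk2 (Pearson's r of 0.99 for each), and Jag1 to Tgfb3, Col4a1 and Lmna (0.99 for each). Notch3 was closest to Ltbp3, Elk4 and Invs (0.99 for each). Hes1 was closest to Tnfrsf1b (0.98), Prelp (0.97) and Rhoc (0.97), and Hes5 to Rnf44 (0.99), Bcl7c (0.98) and Alg10b (0.98). Ttc5 and Mrps18a were among the 3 closest for both Dll1 and Hes6, whose own group means correlated at 0.99. Dll4 was closest to Lypla1 (0.97), Sppl3 (0.96) and Smad4 (0.96), and Hey1 to Kifap3 (0.98), Alg10b (0.98) and Astn1 (0.97). Notch1 had no gene above 0.87, the value for Mphosph8, followed by Cep68 (0.83) and Abcf1 (0.82). The lowest correlation among the members was that of Notch3 with Hes5, at -0.96.

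By position on GRCm38, Notch1 (ENSMUSG00000026923; chr2:26457903-26516663), Dll4 (ENSMUSG00000027314; chr2:119325784-119335962) and Jag1 (ENSMUSG00000027276; chr2:137081456-137116644) lie on chromosome 2. Notch2 (ENSMUSG00000027878; chr3:98013527-98150361) and Hey1 (ENSMUSG00000040289; chr3:8663359-8667256) lie on chromosome 3, and Notch3 (ENSMUSG00000038146; chr17:32120820-32166880) and Dll1 (ENSMUSG00000014773; chr17:15367354-15376872) on chromosome 17. Hes1 (ENSMUSG00000022528; chr16:30064384-30067796), Hes5 (ENSMUSG00000048001; chr4:154960923-154962371) and Hes6 (ENSMUSG00000067071; chr1:91411483-91414038) lie on chromosomes 16, 4 and 1. All 10 are protein-coding, and counts cover their exons. The strand setting of the counting is not given in the sources used here, so reads of a member and of a gene on the opposite strand cannot be told apart where their exons overlap. This concerns Notch1 (0610009E02Rik and Gm13568), Notch3 (Gm17276), Dll1 (A930024N18Rik), Dll4 (Gm14207) and Hes5 (Gm20421). The partner of Dll1 held 2 to 73 counts, that of Dll4 0 to 44 and that of Hes5 0 to 10 over the libraries. Notch2 overlaps Gm42820 on its own strand, which held 7 to 154 counts. Jag1, Hes1, Hes6 and Hey1 overlap no other annotated gene.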

How the data were processed

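Total RNA of 33 libraries was sequenced after extraction and library preparation with Takara low-input kits, per the labels' protocols. The authors deposited a table of whole-number read counts per gene, without normalisation, and a table of TPM for each library. The TPM served only as an alternative. Per the submitters' processing notes HISAT2, StringTie, HTSeq and build GRCm38 were used; versions, roles, strand setting and annotation are not given in the sources used here. Of 317146 gene and library values with at least 100 counts, 24.7% had a TPM of 0, so levels between genes use counts per kb of merged exon (GENCODE M21).

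Of 32488 genes with a count, filterByExpr (minimum count 10) kept 18150, and libraries were scaled by TMM. A quasi-likelihood model of 11 group means was fitted to all 33 libraries (edgeR 4.0.16, limma 3.58.1, R 4.3.3), with 15 comparisons and p-values adjusted by Benjamini-Hochberg over all genes of a comparison. Tables and figures used Python 3.11.15. In simulated data at day 5, 50% of 100 genes changed 2-fold and 77% of 100 changed 4-fold were recovered. Beside these true calls stood 13 false ones, among 17917 genes in all. The counts were drawn from the fitted means and spread, so departures of real libraries from that model are not covered. For the change with day the shares were 29% and 54% of 100 genes each.

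The members and the lists of pathway and marker genes were chosen with earlier results of these data known. Of the other pathway genes the text names, per comparison, the called gene with the largest rise and that with the largest fall, provided that its mean log2 CPM reached 1 and its libraries did not overlap, and those called the same way at 3 or more of the 5 days. For likeness of pattern, the 3 genes with the highest correlation of group mean log2 CPM were taken among those with a mean of at least 3, passing over provisional symbols. Marker lists of other cell types were also summed for retinal ganglion, amacrine and horizontal, bipolar, astrocyte, microglia, pigment epithelium and lens cells. Alternatives were DESeq2's size factors, 2 other filters, a replicate block, voom with quality weights, DESeq2 1.42.0, a model of the compared libraries only, limma on log2(TPM + 1) for genes with a mean TPM of at least 1, and leaving out each library. The 33 pairs of replicates differed by more than sampling noise (chi-square per degree of freedom 7.80 to 100). The labels name no batch.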

Additional observations from a re-analysis of the deposited data

Results flagged for a closer look

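For 2 members the difference between cone and rod cells was not the same at all 5 days (edgeR F test). For Hes1 (adjusted p = 0.0114) it was a log2 fold change of -1.76 at day 0 and -0.17 at day 35. For Jag1 (adjusted p = 0.0157) it was 0.11 at day 0, 2.18 at day 12 and 0.24 at day 21. Both calls held when any 1 of the 30 libraries of this comparison was left out, and on the deposited TPM the Hes1 call was lost (adjusted p = 0.999) while Jag1 did not pass the filter on mean TPM.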

How the results depend on the processing

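Of the calls of single members, 399 of 462 checks that left out 1 library kept the call and its direction and 63 lost the call. Over the other alternatives 387 kept the call, 26 lost it and 6 reversed. With 1 library left out the number of members called between cone and rod cells was 2 to 3 at days 0 and 5, 1 at day 12, 1 to 4 at day 21, 0 to 1 at day 35, 4 to 5 over the mean of days and 2 to 3 for the change with day. It was 2 to 4 for rod priming, 3 to 7 in cone cells to day 5 (3 without the third cone primed library), 4 to 5 in rod cells to day 5, 9 in cone cells from day 5 to day 12, 5 to 10 in rod cells over that step (5 without the first and 10 without the second rod library of day 12), 2 in cone cells and 0 to 3 in rod cells from day 12 to day 35 (0 without the third rod library of day 35).

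With voom and quality weights 6 members were called at day 0, 2 at day 35 and 5 for the change with day. With only the compared libraries in the model 6, 5, 1 and 0 were called between cone and rod cells of days 0, 5, 12 and 35, 5 in rod cells from day 5 to day 12 and 0 from day 12 to day 35. On the deposited TPM, where 4 members could be tested, 1 was called in cone cells to day 5 and 1 to day 12, and 0 in the other comparisons. TPM also turned the sign of Hes1 at day 12 (0.0047), day 21 (0.13), day 35 (0.31, where it had not been called), over the mean of days (0.063), on rod priming (-0.093) and in cone cells from day 12 to day 35 (-0.54), and of Dll1 in cone cells to day 5 (0.65). TPM is listed at 0 in 11 libraries for Hes1 and 5 for Dll1, and TPM moved the median log2 fold change of all genes in cone cells to day 5 from 0.05 to 0.77. The cause of the other changes was not tested.

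Over all genes the number of calls moved by over 1.5 times as follows. Voom called 3200 against 1320 at day 0, 3371 against 1685 at day 5, 4146 against 1833 at day 12, 3699 against 1633 at day 21, 4758 against 1674 for the change with day (DESeq2 3012), 3768 against 1864 on rod priming, and 4896 against 3185 and 6955 against 3318 in rod cells to days 5 and 12. The compared libraries alone gave 2084, 2780, 363 and 1456 at days 0, 5, 12 and 35, 2912 on rod priming, and 965 and 1369 in rod cells to days 12 and 35. TPM gave 9 to 1952 calls in the comparisons with any. Voom and the smaller model moved the share of calls that were higher by over 10 points in 4 comparisons each (at day 0 from 34.4% to 46.9% and 51.8%), and DESeq2's size factors in none. TPM moved it further, at day 0 to 3.3%, in cone cells to day 5 from 54.4% to 97.8% and in rod cells from day 12 to day 35 from 47.8% to 5.5%. With 1 library left out 22 of 132 such counts moved: at day 0 to 756, 573 and 577 (without the first or the third cone primed or the third rod primed library), at day 5 to 969, 1051 and 891 (the first or the second cone, the first rod), at day 12 to 986 and 1139 (the third cone, the third rod), at day 21 to 959 and 952 (the second or the third rod), at day 35 to 1460 from 2229 (the first rod), and for the change with day to 2884 (the first rod library of day 12). On rod priming they were 985, 1225 and 829 (without the second or the third untreated or the third rod primed library). In cone cells they were 2419 from 4056 to day 5 (the second primed) and 2583, 2602 and 2497 from 3957 between days 12 and 35 (the second of day 12, the first or the third of day 35). In rod cells they were 1950 to day 5 (the second of day 5) and 2101 and 2059 to day 12 (the second of day 5, the first of day 12).

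Replicate numbers are shared by the groups, but the labels do not say what they mark. Same-numbered libraries correlated at -0.226 to 0.513 in their deviations, in 0 of 13 comparisons was every pair over 0.1, and 13 of 39 libraries correlated best with their own number, so the numbers were not taken to pair libraries. With the replicate block 3, 3, 2, 3 and 1 members were called between cone and rod cells at days 0, 5, 12, 21 and 35, 7 in cone cells to day 5 (Dll1 lost, adjusted p = 0.050), 10 to day 12, and 3 in rod cells from day 12 to day 35. Depth limits Hes5 and Dll4 after day 5, where libraries held 0 to 7 and 2 to 98 counts.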

Other observations

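The other marker lists are given here as summed levels, and their part in the results above was not tested. The 9 microglia markers, of which 7 could be tested, summed to 39.2 to 96.1 CPM in cone and 1.08 to 3.59 in rod cells at day 21, where 5 of the 7 were higher in cone cells (edgeR), and to 49.2 to 270 and 1.94 to 4.61 at day 35, where all 7 were higher in cone cells. Of all tested genes 5.86% were higher in cone cells at day 21 and 7.77% at day 35. Lens markers summed to 1.00 to 2.11 CPM in untreated cells and to 10.6 to 11.9 in cone and 13.1 to 16.8 in rod cells at day 35. Although that sum was higher in rod cells, 2 of the 7 tested lens markers were higher and none lower in cone cells (edgeR). In cone over rod cells 2 were lower at day 5, 3 higher at day 12 and 4 higher at day 21 (5.8%, 5.98% and 5.86% of all tested genes). The amacrine and horizontal cell list went from 666 to 734 CPM in untreated cells to 206 to 279 in cone and 199 to 243 in rod cells at day 35, with Ptf1a at 0 in both. The retinal ganglion cell list went from 416 to 719 CPM to 100 to 184 and 114 to 212, with Pou4f2 at 0 in both. The astrocyte list went from 271 to 387 CPM to 426 to 640 and 543 to 648. Bipolar markers summed to 179 to 233 CPM in untreated cells and to 175 to 181 in cone and 187 to 225 in rod cells at day 35. Pigment epithelium markers summed to 6.52 to 17.1 CPM in untreated cells and to 25.5 to 39.0 and 25.9 to 32.6 at day 35.

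The letters CACNAG, an N-box of the kind Hes proteins are known to bind, stood on either strand in 36.7% of the 32851 promoters, and upstream of Notch1, Notch2, Notch3, Dll4 and Hes6. AGGTCA, a half-site of retinoid receptors, stood in 14.0% of them, and once in 1 of the 2 promoters each of Dll1 and Hes6. A match of letters is a description.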
